A study of Mus musculus with 4 samples.

Results

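Genic piRNA loci are protein-coding or non-coding genes whose own transcripts are cut into PIWI-interacting RNAs, and 114 of the 214 piRNA loci in the deposited table carried the name of such a host gene. A locus was counted here when the table placed it in the piRNA cluster class and its name began with "pi-" followed by a gene symbol. The other 100 loci were named by chromosome band. The choice used names alone and no measured value. All 114 loci gave reads in each of the 4 libraries.

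The study profiled small RNAs of whole testes from mice 16 days old, with 2 libraries from animals in which Hsf5 was knocked down and 2 libraries from wild-type animals. The labels give the genotype and tissue and name no strain, allele or knockdown agent, and the deposited table calls the knockdown libraries "KO". The stated purpose was to follow piRNA expression in spermatogenesis. The libraries are called biological replicates, without word on litters or days, so every p below measures only the spread between these 4 libraries, part of which may be technical.

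In mice, piRNAs bind PIWI proteins of the germ line. Those of host genes come mostly from the 3' UTRs of mRNAs, are made in fetal germ cells, spermatogonia and spermatocytes, and have few complementary targets that are known. Those of the large intergenic loci are made in abundance from the pachytene stage of meiosis on. MILI binds the shorter piRNAs and MIWI, which appears in pachytene spermatocytes, the longer ones. Hsf5 encodes a transcription factor of the heat shock factor family that is expressed in the testis and needed by male meiotic cells.

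The libraries held 9260452 to 11117460 counted reads, of which 4352106 to 7025053 were 25 to 31 nt long. Levels below are RPM, the 25 to 31 nt reads of a locus per 1000000 counted reads of the library, and 3 reads, the limit that a count of 0 allows, come to 0.270 to 0.324 RPM. Reads that matched Hsf5 transcripts numbered 25 and 32 in the knockdown, against 53 and 31 in the wild type. Such fragments do not measure the mRNA, so the degree of knockdown was not tested. Values of a pair of libraries always follow the replicate numbers. As a check of the tissue, 3 of 4 miRNAs known from spermatocytes, 6 of 6 of the X-linked testis cluster, 4 of 4 of somatic testis cells and 3 of 3 of blood were read in all libraries. The summed X-linked miRNAs stood at 110447 and 178617 per 1000000 mature miRNA reads in the knockdown, against 147960 and 124878 in the wild type. The summed spermatocyte miRNAs stood at 8555 and 7730 in the knockdown, against 6335 and 10601 in the wild type, the somatic ones at 47910 and 49041 against 49319 and 51454, and the blood ones at 49.7 and 42.6 against 44.4 and 55.1. Within these lists the members differed, since 1 abundant miRNA could carry a sum. Knockdown replicate 2 was the lowest library for miR-34b, at 551 against 1392 to 2362 in the other libraries, and for miR-449a, at 84.2 against 149.8 to 267, whereas miR-34c lay within the range of the others. It was also lowest for 3 of the 4 somatic miRNAs, such as miR-202 at 1842 against 3759 to 4375 and miR-126a at 1581 against 4170 to 4761, while miR-143 was highest there. Of the X-linked miRNAs, miR-743a, miR-880 and miR-883a were lowest in knockdown replicate 2 (miR-883a at 434 against 3161 to 4004), and miR-741, miR-871 and miR-881 were highest there. Over all reads, the ratio of 29 to 31 nt to 25 to 28 nt reads was 0.223 and 0.602 in the knockdown, against 0.492 and 0.466 in the wild type. Knockdown replicate 1 thus had the lowest share of long reads. The tests by locus and the differences between genotypes in summed share, length ratio and first base were also run without it. Other results, such as counts of loci, sums of groups and comparisons of the kinds of locus, include it.

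The piRNAs below were chosen because they show what the reads of these loci look like and where the libraries differ. Each is the most read 25 to 30 nt sequence of its locus among those with 1 place in the genome. The letters are the DNA letters of the table, where T stands for U. The capital marks the first base.
pi-Gm5878: Tagaagacgagtttggactgagcgaaattc
pi-1700006A11Rik: Tggaaaaaaggtgaatctgaaaaagg
pi-Cbl: Tggactattcgaatggaggtgctctc
pi-Zfp382: Ttgtaaggatatgcttcgtgtggctcc
pi-Fth1: Tgcaacttcgtcgttccgccgctcc
pi-Lsmd1: Tgtgcactgatcgcgactgtaatgtcatc
pi-Trim71: Taggactggggctttctctggcttc
The pi-Gm5878 sequence (chr6:85089860-85089889, minus strand, GRCm39) had 6 and 936 reads in the knockdown, against 311 and 365 in the wild type. The pi-1700006A11Rik sequence (chr3:124212905-124212930, minus strand) had 0 and 341 reads in the knockdown, against 104 and 156 in the wild type. The pi-Fth1 sequence (chr19:9960176-9960200, plus strand) had 539 and 265 reads in the knockdown, against 553 and 293 in the wild type. Both of the first were nearly or wholly missing from knockdown replicate 1 alone, whereas the ferritin sequence was read about as often there as in wild type replicate 1. The pi-Lsmd1 sequence (chr11:69287124-69287152, plus strand) made up 57.0% of the reads of its locus, the one from pi-Fth1 11.9% and the one from pi-Gm5878 10.2%, while those of pi-Cbl and pi-Zfp382 made up 2.97% and 2.78%.

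The 114 loci lay on 19 chromosomes, 56 on the plus and 58 on the minus strand. The host of a locus was the GENCODE M39 gene with most exonic reads, sought only on its leading strand, the strand with most reads. By this choice 112 hosts were protein-coding genes and 2 were long non-coding RNA genes, Gm5878 and Gm49654. Gm49654 was assigned to the locus named pi-Map3k9 by position and held 35.05% of its reads with 1 place, so the host of that locus, and with it these counts, is uncertain. The symbol in the name was current for 100 loci and an older one for 8, while 6 were matched to another symbol by position. At 109 loci more than 90% of the reads with 1 place in the genome, on the leading strand, lay in the host gene, introns included. The host was picked by its reads, so a high share is partly set by that choice. None of 19 genes of the piRNA pathway itself, such as Piwil1, Piwil2 and Mov10l1, was among the hosts. Of the reads with 1 place, 99.5% and 99.5% in the knockdown lay on the leading strand of their locus, against 99.4% and 99.3% in the wild type. These reads are called sense below. Nearly all piRNAs of a locus thus came from 1 strand in both genotypes. The gene of the name lay on that strand at the 100 loci with a current symbol and the 8 with an older one. Hosts were sought on that strand alone, so the direction of reads at the 6 others was not tested.

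Most of the reads came from 3' UTRs. Of the sense reads with 1 place, the 3' UTR gave 79.5% and 75.6% in the knockdown, against 77.0% and 73.1% in the wild type. Coding sequence gave 9.86% and 12.6% in the knockdown, against 12.03% and 13.8% in the wild type. Introns gave 5.47% and 4.76% in the knockdown, against 4.21% and 4.77% in the wild type. The genotypes overlapped in each of these regions. More than 50% of the reads lay in the 3' UTR at 94 of the 114 loci, and more than 90% at 57 of them. Per kilobase, reads were denser in the 3' UTR than in the coding sequence at 89 of 109 loci with both regions, with a median ratio of 5.67. These densities used 1 transcript per host, the one with most exonic reads, whereas the region shares used the canonical transcript first. Some of the transcripts so picked had a short coding sequence, such as 177 bases at pi-Zfp382. pi-Cbl (chr9:44054276-44145293, minus strand, GRCm39) had 99.3% of its reads in the 3' UTR of its host, a ubiquitin ligase gene. The Argonaute gene Ago2 (listed as pi-Eif2c2) had 96.2% there.

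**Figure D1:**
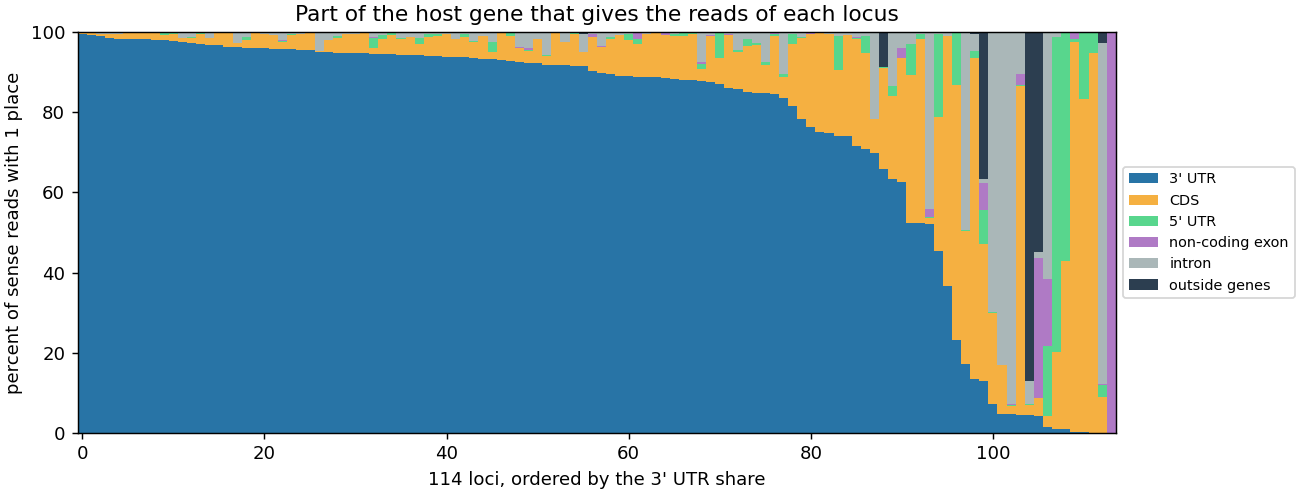
Share of sense reads with 1 place in the genome (y axis, percent, the 4 libraries summed) that lay in each part of the host gene, for the 114 loci ordered along the x axis by their 3' UTR share. The 3' UTR holds more than 50% of the reads at 94 loci, and the exceptions at the right are mostly coding, intronic or non-coding.

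A minority of loci drew their reads from elsewhere in the gene. Coding sequence held more than 50% at 7 loci, among them pi-1700006A11Rik (80.2%), pi-Hist1h1a (83.0%, the linker histone gene H1f1), pi-Ankrd11 (82.1%), pi-Rplp1 (94.8%, a protein of the ribosomal stalk) and pi-Lsmd1 (97.3%, the N-terminal acetyltransferase subunit gene Naa38). The 5' UTR led at 2 loci, with 57.1% at pi-Fth1, the ferritin heavy chain gene, and 78.5% at pi-Cdc42ep3, whose product binds the GTPase CDC42. Introns led at 5 loci, with 92.9% at pi-Phf20 and 85.1% at pi-1700016M24Rik. pi-Gm5878 had 99.9% of its reads in exons of its long non-coding RNA. At pi-Map3k9 and pi-Kcng3 most reads lay outside genes annotated on the leading strand. Genes of the other strand were not considered. At pi-Smcr8, pi-Mlc1 and pi-Klhl11 no region passed 50%. The 94 loci led by their 3' UTR summed to 7209.9 and 13626 RPM in the knockdown, against 10757 and 9109 RPM in the wild type. The 7 coding loci summed to 321 and 1170.2 RPM in the knockdown, against 872 and 1027 RPM in the wild type. In the 3' UTR class and the coding class knockdown replicate 1 was lowest and knockdown replicate 2 highest. The sums of the loci led by 5' UTRs, by introns or by sequence outside such genes had other orders.

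Gene-named loci together took a small part of the piRNAs, and the genotypes overlapped. Their summed level was 8543 and 16948 RPM in the knockdown, against 13147 and 11708 RPM in the wild type. Of all 25 to 31 nt reads they gave 1.89% and 2.63% in the knockdown (2.26% ± 0.524), against 2.54% and 2.04% in the wild type (2.29% ± 0.360; SD, n = 2 each). The difference of -0.031 percentage points was smaller than the spread within either genotype (exact two-sided permutation p = 1, where the smallest possible with 2 against 2 libraries is 0.333). Counting error was far smaller, with Wilson 95% intervals of at most 0.0129 points to either side, which cover counting alone, since PCR copies of 1 molecule count as several reads. Left without knockdown replicate 1, the difference was 0.340 points, and without wild type replicate 1 it was 0.224 points. In whole testis, fewer cells of a type and less RNA per cell cannot be told apart.

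The median locus had 49.0 and 84.6 RPM in the knockdown, against 80.0 and 58.4 RPM in the wild type. The highest locus was pi-Zfp382 at 394 RPM in knockdown replicate 1 and pi-Cbl at 795 RPM in knockdown replicate 2, against pi-1700006A11Rik at 723 RPM in wild type replicate 2. The lowest ones were pi-Wdfy3 at 2.08 RPM and pi-Arhgap20 at 14.9 RPM in the knockdown, against pi-Cdc42ep3 at 10.6 RPM and pi-Zfp866 at 10.2 RPM in the wild type. The 10 loci of highest mean RPM held 29.9% and 34.6% of the gene-named reads in the knockdown, against 26.7% and 36.9% in the wild type. RPM was highest in knockdown replicate 1 at 0 of the 114 loci and in knockdown replicate 2 at 63, against 0.935% and 63.6% of all 214 loci. It was highest in wild type replicate 1 at 47 and in wild type replicate 2 at 4, against 23.4% and 12.1% of all loci. The library of highest RPM thus differed from locus to locus.

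The leading loci had hosts of varied function. pi-Cbl had 289 and 795 RPM in the knockdown, against 400.4 and 474 RPM in the wild type. Its knockdown libraries lay on either side of the wild type. pi-Eif2c2, from the gene of the slicing Argonaute of the miRNA pathway, had 339 and 677 RPM in the knockdown, against 332 and 430.4 RPM in the wild type. pi-Asb1, from a gene of a SOCS box protein, had 249 and 524 RPM in the knockdown, against 236 and 351 RPM in the wild type. In this pair of loci wild type replicate 1 was lowest and knockdown replicate 2 highest. pi-Zfp382, from a gene of a KRAB zinc finger protein, had 394 and 472 RPM in the knockdown, against 345 and 413 RPM in the wild type. pi-Eif4ebp2, from a gene for a repressor of cap-dependent translation, had 257 and 388 RPM in the knockdown, against 305 and 313 RPM in the wild type. pi-Fth1 had 309 and 358 RPM in the knockdown, against 429 and 240.4 RPM in the wild type. In pi-Zfp382, pi-Eif4ebp2 and pi-Fth1 the 4 libraries stayed within a narrow range and the genotypes overlapped.

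**Figure D2:**
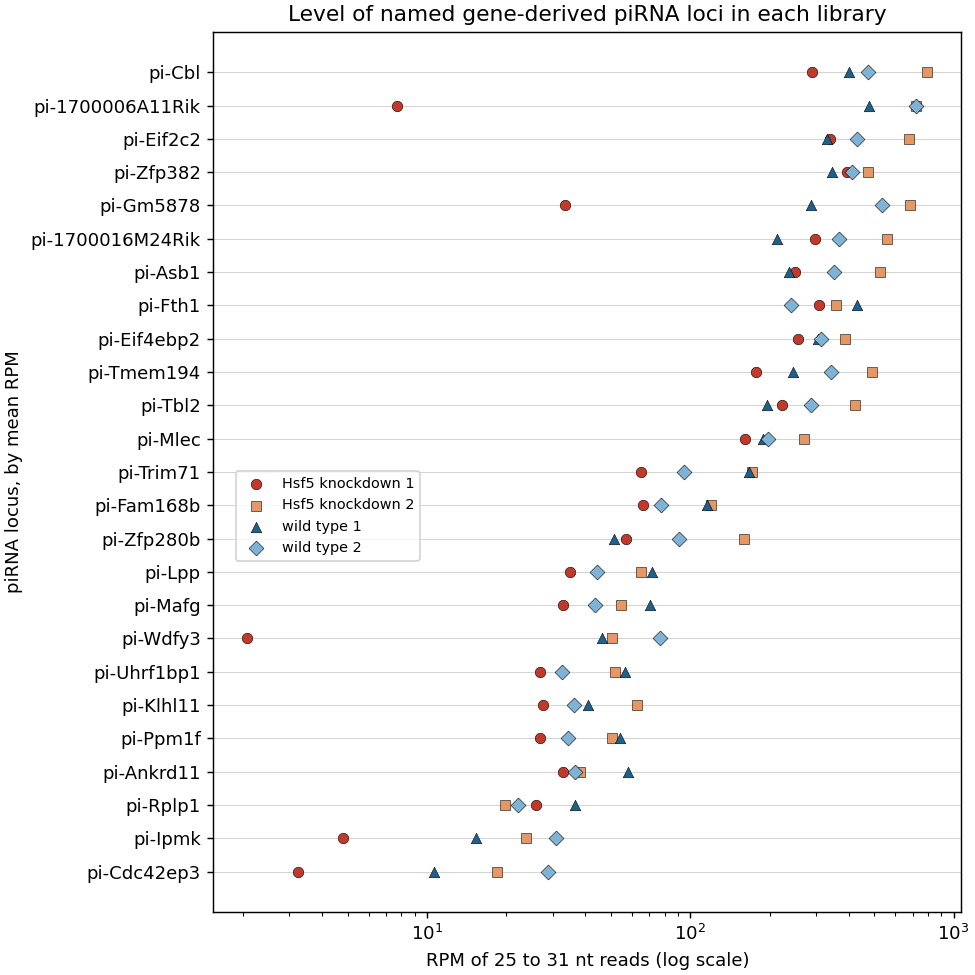
Level in RPM (x axis, log scale) of 25 loci picked by the naming rule (y axis, ordered by mean RPM), with 1 symbol per library. pi-1700006A11Rik, pi-Gm5878 and pi-Wdfy3 lie far to the left in knockdown replicate 1 alone, at 7.69, 33.6 and 2.08 RPM.

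A few loci were nearly absent from knockdown replicate 1. pi-1700006A11Rik (chr3:124191732-124219640, minus strand) had 7.69 and 721 RPM in the knockdown, against 475 and 723 RPM in the wild type. pi-Wdfy3 (chr5:101980826-102217798, minus strand), whose host encodes an adaptor of selective autophagy, had 2.08 and 50.3 RPM in the knockdown, against 46.2 and 76.5 RPM in the wild type. Knockdown replicate 1 stood at 1.62% of the lowest other library for the first and at 4.50% for the second. Knockdown replicate 2 lay within the wild-type range at both, so the genotypes overlapped. These were the only 2 of 114 gene-named loci (1.75%) under 5% of the lowest other library in knockdown replicate 1, whereas 28 of all 214 loci (13.1%) were. No locus fell under that bound in any of the other 3 libraries. When each distinct sequence was counted once, 0 gene-named loci fell under it, against 2 by reads. Under 50% of the lowest other library there were 7 gene-named loci (6.14%), against 26.2% of all loci. Besides both loci above these were pi-Gm5878, pi-Arhgap20, pi-Cdc42ep3, pi-Ipmk and pi-Mgll. pi-Gm5878 (chr6:85088398-85103076, minus strand) had 33.6 and 684 RPM in the knockdown, against 287 and 535 RPM in the wild type. pi-Mgll, from the monoglyceride lipase gene, had 10.4 and 39.6 RPM in the knockdown, against 32.1 and 32.3 RPM in the wild type. Each of these 7 loci lay above the lower wild-type library in knockdown replicate 2, and the part of the low share of long reads in knockdown replicate 1 in these values was not tested.

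Across all loci, the quasi-likelihood F test of edgeR (p-values adjusted after Benjamini and Hochberg) called 0 of 214 loci higher and 0 lower in the knockdown (0% in each direction), and so 0 of the 114 gene-named loci. At an unadjusted p under 0.05 there were also 0, and DESeq2 called 0. The fit put the biological coefficient of variation at 0.778. The median log2 difference over the gene-named loci was 0.11, the same as over all loci, with 77 loci above 0 and 37 below. With library sizes from all counted reads that median was -0.06, and with those from mature miRNA reads it was -0.17, so the direction of the group as a whole depended on the scaling. The lowest p among loci with higher counts belonged to pi-1700016M24Rik (log2 difference 0.83, SE 0.57), pi-Zfp280b (0.75, SE 0.54) and pi-Tbl2 (0.66, SE 0.54), each with an edgeR adjusted p of 0.990. pi-1700016M24Rik had 297 and 558 RPM in the knockdown, against 214 and 367 RPM in the wild type. pi-Tbl2, from a gene for a WD-repeat protein of the endoplasmic reticulum, had 222 and 422 RPM in the knockdown, against 196 and 286 RPM in the wild type. In both loci each genotype held 1 library inside the range of the other.

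On the side of lower counts, the lowest p belonged to pi-Wdfy3 (log2 difference -1.53, SE 1.09), pi-Cdc42ep3 (-0.87, SE 0.77) and pi-Ipmk (-0.71, SE 0.66), again with edgeR adjusted p-values of 0.990. pi-Ipmk, from the gene of inositol polyphosphate multikinase, had 4.78 and 23.8 RPM in the knockdown, against 15.4 and 30.8 RPM in the wild type. pi-Cdc42ep3 had 3.22 and 18.4 RPM in the knockdown, against 10.6 and 28.7 RPM in the wild type. In both, knockdown replicate 1 was the lowest library and knockdown replicate 2 lay between the wild-type libraries. Without knockdown replicate 2 the test called 63 loci, 4 of them gene-named. These were pi-1700006A11Rik (-5.26), pi-Wdfy3 (-3.85) and pi-Gm5878 (-2.57) as lower and pi-Zfp382 (1.04) as higher, on the log2 scale and with knockdown replicate 1 alone assumed to vary like the wild type. Without knockdown replicate 1 the test called 0 loci, and the log2 difference of pi-1700006A11Rik was -0.36, that of pi-Wdfy3 -0.90, that of pi-Gm5878 0.14 and that of pi-Zfp382 -0.34.

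A simpler view asks where the libraries of the genotypes did not overlap. By RPM the knockdown pair lay above the wild-type pair at 1 of 114 gene-named loci, against 2.34% of all loci, and below it at 1, against 0.467%. The first was pi-Tktl2, from a transketolase-like gene, with 123 and 182 RPM in the knockdown, against 121 and 112 RPM in the wild type. The other was pi-Bcl2l13, from a gene for a mitochondrial protein of the BCL2 family, with 65.5 and 81.9 RPM in the knockdown, against 86.5 and 85.4 RPM in the wild type. Both gaps were narrow. Per 1000000 mature miRNA reads there were 0 loci above (0%) and 5 gene-named loci below, pi-Ctdsp2, pi-Fam53b, pi-Ankrd11, pi-Il17rd and pi-Rplp1, against 3.27% of all loci. Neither pi-Tktl2 nor pi-Bcl2l13 was among these 5, so the loci that separated the genotypes were set by the scaling.

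The reads of gene-named loci were mostly short. The most frequent length was 26 nt at 74 loci and 27 nt at 36 loci in knockdown replicate 1, and 26 nt at 38 and 27 nt at 64 loci in knockdown replicate 2. In the wild type it was 26 nt at 38 and 27 nt at 65 loci in replicate 1, and 26 nt at 53 and 27 nt at 46 loci in replicate 2. The length ratio, reads of 29 to 31 nt over reads of 25 to 28 nt, was 0.134 and 0.360 in the knockdown (0.247 ± 0.160), against 0.284 and 0.338 in the wild type (0.311 ± 0.038; SD, n = 2 each) when summed over the 114 loci. The knockdown libraries lay below and above the wild type. The difference of -0.064 did not exceed their spread (exact permutation p = 1), and without knockdown replicate 1 it was 0.0489. By the median over loci the ratio was 0.123 and 0.209 in the knockdown, against 0.216 and 0.214 in the wild type. There both knockdown libraries lay below the wild type, by a mean of -0.049 and at the smallest possible p (exact permutation p = 0.333), although knockdown replicate 2 lay close to it.

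**Figure D3:**
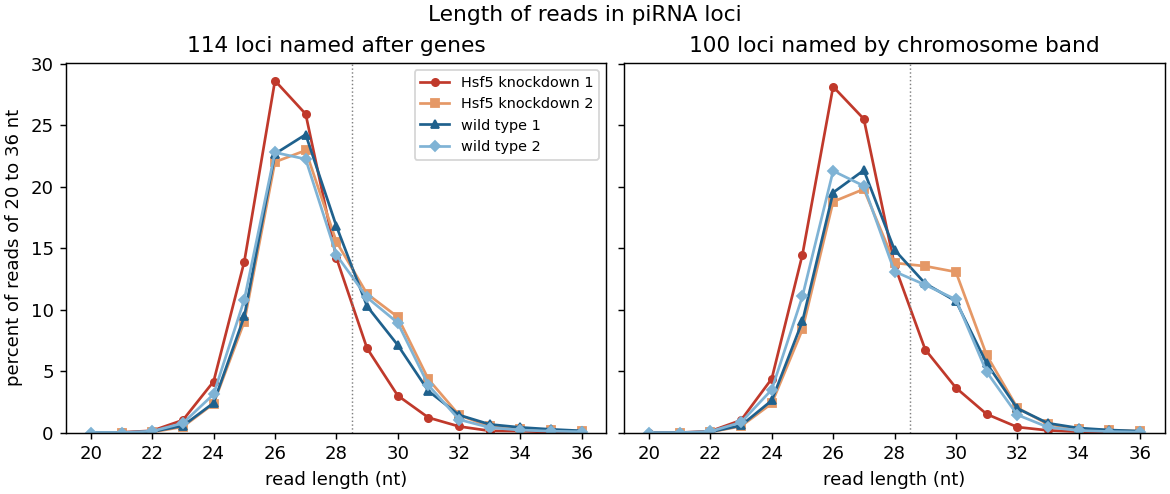
Length of reads (x axis, nt) as a percentage of the 20 to 36 nt reads (y axis) in loci named after genes, left, and by chromosome band, right, with 1 line per library and a dotted line between 28 and 29 nt. Both kinds of locus have a shoulder of long reads that is lowest in knockdown replicate 1, and the shoulder is higher in the band-named loci.

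Of the 114 loci, 107 had at least 100 reads in every library and were tested for the length ratio with 69 band-named loci. The 7 others were pi-1700006A11Rik, pi-Wdfy3, pi-Cdc42ep3, pi-Ipmk, pi-Arhgap20, pi-Lsmd1 and pi-Zfp866. The limma test on the log2 ratio with Benjamini-Hochberg adjustment called 0 of 176 loci lower and 0 higher (0% each). At an unadjusted p under 0.05 there were 4 loci, 1 of them gene-named. The median log2 difference of the gene-named loci was -0.34. It was -0.77 without knockdown replicate 2 and 0.083 without knockdown replicate 1, with 1 knockdown library left in each. The fit gave all tested loci the same SE, 0.75 with all 4 libraries, so its precision came from the loci. With 1 knockdown library left, a shift of that whole library cannot be told apart from a difference between genotypes. The ratio was lowest in knockdown replicate 1 at 93 of 107 loci, against 91.5% of all loci tested, in knockdown replicate 2 at 5, against 3.41%, and in wild type replicate 2 at 9, against 5.11%. The knockdown pair lay below the wild-type pair at 25 of 107 loci, against 18.8% of all loci tested, and above both at 0 (0%).

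Gene-named loci had shorter reads than band-named loci in every library. The medians below cover loci with at least 100 reads in every library, 107 of 114 gene-named and 69 of 100 band-named ones. That bound thus left out more of the band-named loci. The median log2 length ratio of the gene-named loci was -3.05 and -2.29 in the knockdown, against -2.21 and -2.27 in the wild type. That of the band-named loci was -2.44 and -0.53 in the knockdown, against -0.65 and -0.80 in the wild type. The gap between the kinds of locus was -0.61 and -1.76 in the knockdown, against -1.57 and -1.47 in the wild type, with a mean of -1.35 and the same sign in 4 of 4 libraries (exact two-sided sign-flip permutation p = 0.125, the smallest that 4 libraries can give). Knockdown replicate 1 had the smallest gap, since its band-named loci had ratios close to those of gene-named loci. From reads summed over each kind, in place of medians over loci, the mean gap was -0.42 with the same p. That gap was -0.12 and -0.59 in the knockdown, against -0.63 and -0.33 in the wild type, so it was small in knockdown replicate 1.

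**Figure D4:**
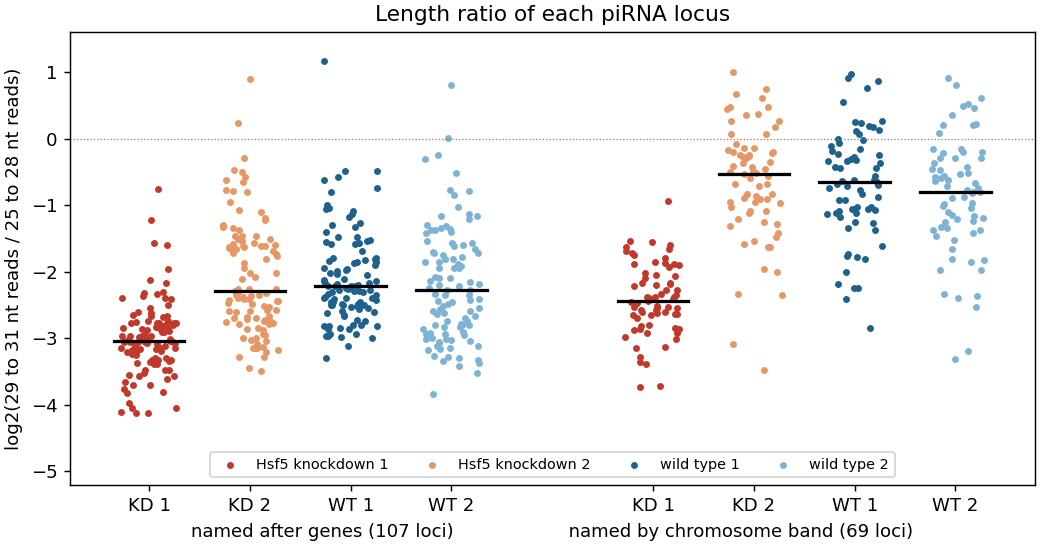
Log2 ratio of 29 to 31 nt reads over 25 to 28 nt reads (y axis) of each locus with at least 100 reads in every library, by library and kind of locus (x axis), with black lines at the medians. Gene-named loci lie near -2.2 or -2.3 in 3 libraries and at -3.05 in knockdown replicate 1, and band-named loci lie above them in each library.

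The gene-named loci differed widely among themselves in length. By the mean ratio of the wild-type libraries, 79 loci lay under 0.3, 28 from 0.3 to 0.8 and 7 at or above 0.8, with bounds chosen after the values were seen. The 7 loci with many long reads were pi-Gm5878, pi-Zfp280b, pi-Wdfy3, pi-Lsmd1, pi-Ipmk, pi-Cdc42ep3 and pi-Arhgap20. pi-Gm5878 had a ratio of 0.429 and 1.85 in the knockdown, against 2.25 and 1.74 in the wild type. pi-Zfp280b, from a zinc finger gene, had a ratio of 0.594 and 1.17 in the knockdown, against 0.714 and 1.01 in the wild type. pi-Cbl, in the middle group, had a ratio of 0.202 and 0.668 in the knockdown, against 0.576 and 0.698 in the wild type. All were lowest in knockdown replicate 1. Other loci of high ratio were pi-Tmem194, from the nuclear envelope gene Nemp1, with 0.194 and 0.723 in the knockdown, against 0.712 and 0.813 in the wild type, and pi-Klhl11, with 0.221 and 0.815 in the knockdown, against 0.600 and 0.558 in the wild type.

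At the other end stood loci with hardly any long reads in any library. pi-Trim71, from a gene known as a let-7 target in many animals, had a ratio of 0.0575 and 0.112 in the knockdown, against 0.115 and 0.111 in the wild type. pi-Uhrf1bp1 had a ratio of 0.0882 and 0.108 in the knockdown, against 0.102 and 0.0945 in the wild type. pi-Mafg, from the gene of a small Maf transcription factor, had a ratio of 0.0969 and 0.0879 in the knockdown, against 0.130 and 0.0986 in the wild type. pi-Fam168b and pi-Ppm1f, the other two of the 5 lowest, ranged from 0.0597 to 0.142 over the 4 libraries. The libraries differed little in the ratio of pi-Uhrf1bp1, in which knockdown replicate 1 was not apart.

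Between some of the libraries, the difference in level of a locus went with the length of its piRNAs. The 7 loci at or above 0.8 summed to 113 and 985 RPM in the knockdown, against 444 and 787 RPM in the wild type. The 28 loci from 0.3 to 0.8 summed to 3175 and 7209.8 RPM in the knockdown, against 4022 and 5054 RPM in the wild type. The 79 loci under 0.3 summed to 5255 and 8753 RPM in the knockdown, against 8681 and 5867 RPM in the wild type. The first group was highest in knockdown replicate 2 and lowest in knockdown replicate 1, whereas the last was nearly equal in knockdown replicate 2 and wild type replicate 1 and nearly equal in the other pair. The summed X-linked miRNAs, given above, had the same order of libraries as the last group, with knockdown replicate 2 highest, then wild type replicate 1, wild type replicate 2 and knockdown replicate 1. That order of the sum was not shared by miR-743a, miR-880 and miR-883a, which were lowest in knockdown replicate 2, and the part of these miRNAs in the levels was not tested. The median log2 ratio of RPM in knockdown replicate 1 over replicate 2 was -2.46 in the first group, -0.98 in the middle one and -0.79 in the last. That of wild type replicate 2 over replicate 1 was 0.82, 0.20 and -0.67 in the same order. The level of a locus counts its long and short reads together. A library with few long reads, as knockdown replicate 1, is therefore lower by construction at loci rich in them. The groups were set by the ratios of the wild-type libraries, so the wild-type medians do not stand apart from the grouping. The part of either in these values was not tested.

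Across the 114 loci, the log2 RPM of knockdown replicate 1 over knockdown replicate 2 correlated with the mean log2 length ratio in the wild type at Pearson's r = -0.574 and Spearman's rho = -0.430. The log2 RPM of wild type replicate 2 over wild type replicate 1 correlated with the log2 length ratio in knockdown replicate 2 at r = 0.764 and rho = 0.769. For knockdown replicate 2 over wild type replicate 2 against the length ratio in wild type replicate 1, r was -0.269 and rho -0.196. Over the 107 loci with at least 100 reads in every library, the same relations had r = -0.511 and rho = -0.333, r = 0.807 and rho = 0.773, and r = -0.094 and rho = -0.109. The third pair of libraries thus showed hardly any relation. These are descriptions over loci, which share their libraries and are not independent replicates. Level went with length between the 2 libraries of the knockdown and between the 2 of the wild type. Since RPM includes the long reads, the first relation is partly set by the low share of long reads in knockdown replicate 1. The size of that part was not tested. By the log2 RPM of the 114 loci, knockdown replicate 2 was most like wild type replicate 2 (r = 0.966) and wild type replicate 1 (0.922), while knockdown replicate 1 had r = 0.804 with knockdown replicate 2, 0.835 with wild type replicate 1 and 0.742 with wild type replicate 2. Both wild-type libraries had r = 0.904 with each other. Over the 107 loci with at least 100 reads in every library, knockdown replicate 1 had r = 0.906, 0.916 and 0.911 with the same libraries. The wild-type pair had 0.914 there, so the lower values of knockdown replicate 1 rest on the 7 loci left out. That bound removes loci for being low in 1 library, which by itself raises the r of that library. pi-1700006A11Rik, left out for its 74 reads in knockdown replicate 1, had 7858 in knockdown replicate 2, and 5286 and 6694 in the wild type.

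**Figure D5:**
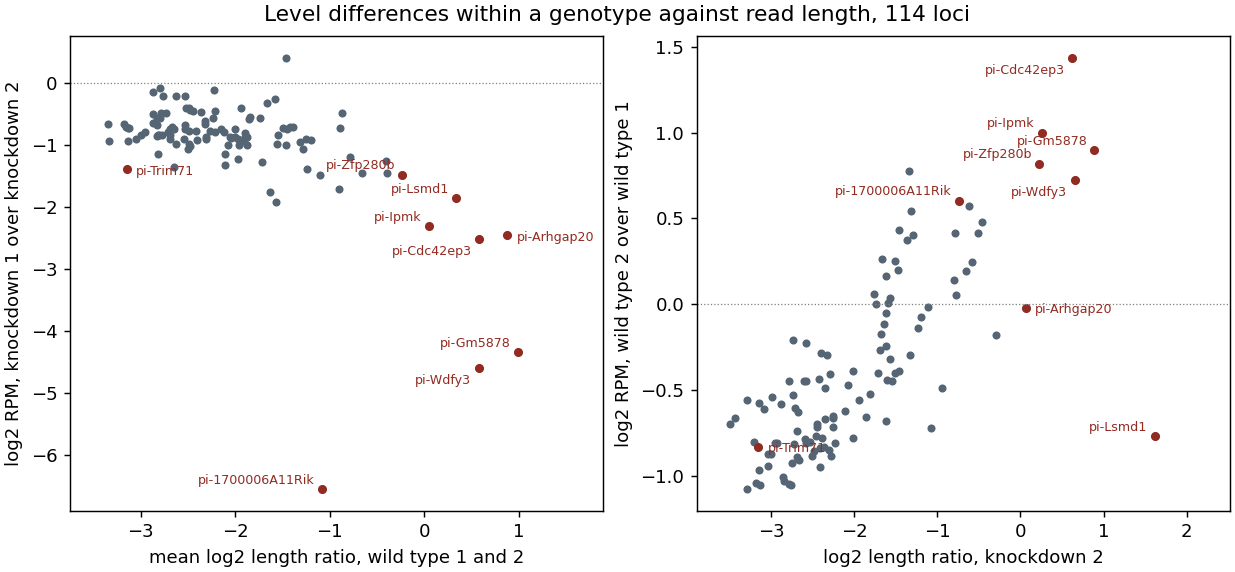
Left, log2 RPM of knockdown replicate 1 over knockdown replicate 2 (y axis) against the mean log2 length ratio in the wild type (x axis); right, log2 RPM of wild type replicate 2 over wild type replicate 1 against the log2 length ratio in knockdown replicate 2, with 1 point per gene-named locus and some loci labelled. The left cloud slopes down (r = -0.574) and the right one up (r = 0.764).

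The same contrast could be seen at single 5' ends, from which shorter and longer forms of a piRNA start. The forms below share their 5' end, and capitals mark the bases that only the longer form has at its 3' end. Starts and their reads were taken from sequences with 1 place in the genome.
pi-Gm5878, 26 nt: tagaagacgagtttggactgagcgaa
pi-Gm5878, 30 nt: tagaagacgagtttggactgagcgaaATTC
pi-Cbl, 26 nt: tggactattcgaatggaggtgctctc
pi-Cbl, 29 nt: tggactattcgaatggaggtgctctcTTC
pi-Fth1, 25 nt: tgcaacttcgtcgttccgccgctcc
pi-Fth1, 30 nt: tgcaacttcgtcgttccgccgctccAGCGT
pi-Lsmd1, 27 nt: tgtgcactgatcgcgactgtaatgtca
pi-Lsmd1, 29 nt: tgtgcactgatcgcgactgtaatgtcaTC
From the pi-Gm5878 start there were 15 long (29 to 31 nt) and 14 short (25 to 28 nt) reads in knockdown replicate 1 and 1231 long and 176 short reads in knockdown replicate 2, against 383 and 42 in wild type replicate 1 and 482 and 96 in wild type replicate 2. From the pi-Cbl start there were 8 long and 159 short reads in knockdown replicate 1 and 328 and 487 in knockdown replicate 2, against 61 and 123 in wild type replicate 1 and 126 and 162 in wild type replicate 2. At pi-Cbl the short forms were thus common in knockdown replicate 1 while the long forms of the same start were few. At pi-Gm5878 both forms were few there.

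From the pi-Fth1 start there were 15 long and 832 short reads in knockdown replicate 1 and 41 and 640 in knockdown replicate 2, against 50 and 1118 in wild type replicate 1 and 23 and 511 in wild type replicate 2. The start favoured short forms in every library. The pi-Lsmd1 start was the reverse, with 30 long and 6 short reads in knockdown replicate 1 and 264 and 28 in knockdown replicate 2, against 125 and 3 in wild type replicate 1 and 48 and 8 in wild type replicate 2. At pi-1700006A11Rik, the most read start (position 124200100 of chromosome 3, minus strand) had 0 long and 0 short reads in knockdown replicate 1 and 520 and 386 in knockdown replicate 2, against 139 and 205 in wild type replicate 1 and 156 and 194 in wild type replicate 2. Its absence from knockdown replicate 1 therefore held for short and long forms alike.

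Most reads began with U, the first base of primary piRNAs. The share was 89.7% and 91.5% in the knockdown (90.6% ± 1.28), against 89.0% and 89.4% in the wild type (89.2% ± 0.331; SD, n = 2 each). By summed reads the genotypes did not overlap, with a difference of 1.40 points at the smallest p that 2 against 2 libraries allow (exact permutation p = 0.333), and Wilson 95% intervals reached at most 0.208 points to either side. Leaving out 1 library in turn gave 0.498 to 2.31 points. By the median over loci, the share was 88.90% and 91.23% in the knockdown, against 88.38% and 88.96% in the wild type, where the genotypes overlapped (exact permutation p = 0.667). By locus, the share was higher in both knockdown libraries than in both wild-type libraries at 33 of 107 loci, against 34.7% of all loci tested, and lower in both at 1, against 0.568%. Among these 107 loci, the highest mean shares were those of pi-Mlec, from the gene of malectin, a lectin of the endoplasmic reticulum, with 94.4% and 95.3% in the knockdown, against 93.2% and 93.2% in the wild type, and pi-Rplp1 and pi-Zfp382. The lowest among them were those of pi-Zfp280b, with 76.9% and 78.8% in the knockdown, against 78.0% and 71.1% in the wild type, pi-Ankrd11 and pi-Lpp. Outside these 107 loci, pi-Wdfy3 lay below pi-Zfp280b in 3 libraries, with 35% in knockdown replicate 1, from 20 reads, and 78.1% in knockdown replicate 2, against 69.5% and 74.0% in the wild type.

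Among loci with at least 100 reads in every library, the median share of a first U was lower in gene-named than in band-named ones. The gap was 1.68 and 0.307 points in the knockdown, against 2.18 and 0.930 points in the wild type. The sign was the same in 4 of 4 libraries (exact sign-flip permutation p = 0.125, the smallest possible). With each distinct sequence counted once the difference turned round to a mean of 2.93 points in favour of gene-named loci, at the same p. The direction thus differed between the 2 ways of counting.

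Base 10, which is often A in piRNAs that arise by ping-pong amplification, was A in 21.8% and 23.3% of gene-named reads in the knockdown, against 22.2% and 23.2% in the wild type. In band-named loci it was A in 24.9% and 25.5% in the knockdown, against 25.4% and 25.7% in the wild type. pi-Lsmd1 stood apart with 57.3% and 88.6% in the knockdown, against 73.1% and 65.1% in the wild type, and 1 sequence with an A there gave most of its reads. The base after the 3' end of gene-named reads, where phased piRNA production leaves a U, was T in 27.3% and 28.2% in the knockdown, against 28.4% and 27.99% in the wild type. Bases inside the same reads were T in 27.1% and 27.99% in the knockdown, against 27.3% and 27.3% in the wild type. The base after the 3' end was thus T in shares less than 1.5 points above those of bases inside the reads. Whether these piRNAs were made by phased production was not tested, and these shares do not settle it.

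Some loci rest on reads that fit more than 1 place, which the deposited counts cannot split. Over all gene-named loci, 96.3% and 96.3% of reads had 1 exact place in the knockdown, against 96.8% and 96.5% in the wild type. The share was 56.9% at pi-Ctdsp2, 58.8% at pi-Zfp280b, 69.0% at pi-Mcart1, 71.3% at pi-Rplp1, 78.8% at pi-Cbl, 80.8% at pi-Nr2c2, 81.4% at pi-Phf20, 83.6% at pi-Zfp866 and 86.4% at pi-Fth1, and it was above 90% at all other gene-named loci. Levels of these loci are uncertain for that reason.

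A pair of loci had a close neighbour of note. pi-1700016M24Rik (chr15:74477878-74508619, minus strand), whose host is now named Mroh4, overlapped a locus named for band qD3 (chr15:74508237-74530760, plus strand), and their starts lay 382 bases apart in opposite directions. The neighbour had 6408 and 9107 RPM in the knockdown, against 5613 and 8827 RPM in the wild type. Both members of this divergent pair were lowest in wild type replicate 1 and highest in knockdown replicate 2. The ratio of pi-1700016M24Rik was 0.229 and 0.395 in the knockdown, against 0.459 and 0.385 in the wild type, and that of its neighbour 0.168 and 0.469 in the knockdown, against 0.417 and 0.362 in the wild type. pi-Acvr2b and pi-Exog lay 3050 bases apart on the plus strand of chromosome 9.

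Heat shock factors as a family bind inverted repeats of GAA, so the promoters of host genes were searched on both strands for GAANNTTCNNGAA and for the shorter motifs GAANNTTC and TTCNNGAA, which the long one contains. RefSeq windows of 300 bases around the start of the gene (build GRCm38.p6) were found for 90 of the 114 hosts. The long motif was in 0 of these 90 windows, against 0.529% of 27025 windows of all genes. GAANNTTC was in 4, or 4.44%, against 7.95% of all windows, at pi-Ddx19b, pi-Strbp, pi-Kctd7 and pi-Klhl11. TTCNNGAA was in 5, or 5.56%, against 8.40%. These are matches of letters in 1 window a gene, and nothing follows from them about binding.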

How the data were processed

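Small RNAs were measured in 4 whole-testis libraries, 2 of Hsf5 knockdown and 2 of wild-type mice. Per the labels' protocols, adaptors were ligated to total RNA and inserts of 18 to 40 bases were selected. The submitters' processing notes name cutadapt, a trimmer of adaptors, and mm39, a mouse genome build. The aligner was not given in the sources used here. Raw read counts, not normalized, were deposited by the authors, with 1 line per distinct sequence, library and annotation. Its ratio column, the authors' scaling factor, was 0.512 and 0.539 in the knockdown and 0.499 and 0.716 in the wild type, equal to 1000000 over mature miRNA reads, and served only as an alternative.

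Each of 6208912 pairs of sequence and library was counted once, and 1 name per sequence was used over all libraries. Among gene-named sequences in at least 2 libraries, 0.377% had names that differed. Levels and length ratios used reads of 25 to 31 nt. Sequences were matched exactly to GRCm39, the same build as mm39, with GENCODE M39. All 25 to 31 nt reads of gene-named loci matched exactly, and those with 1 place lay within their locus. For reads with more places the position was not checked. Reads were given to regions of the canonical transcript first and then of other transcripts.

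Locus counts of all 214 loci were tested with edgeR 4.0.16 (quasi-likelihood, robust, TMM, at least 1 CPM in 2 libraries) and log2 length ratios with limma 3.58.1 (0.5 reads added, at least 100 reads in every library), with Benjamini-Hochberg adjustment at 0.05, in R 4.3.3. Both fits were run on simulated data as a check of the code. The simulated length ratios varied less than the real ones, so that check does not show what the ratio test could find here. TMM factors were 0.658 and 1.18 in the knockdown and 1.12 and 1.15 in the wild type, so scaling raised the loci of knockdown replicate 1. DESeq2 1.42.0 was an alternative. Single values were compared by exact two-sided permutation over 6 assignments. Other alternatives were library sizes, filters, names as deposited, sequences with 1 place, length windows, each sequence counted once, medians over loci in place of sums, a replicate block and each library left out. Library size as reads of gene-named loci was added after the data were seen.

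Loci named in full were the 10 of highest mean RPM, the 3 of lowest p in each direction, the 5 highest and 5 lowest in length ratio, the 3 highest and 3 lowest in first T, and those under 5% of the lowest other library in 1 library. 1 locus picked by this rule is not reported here. Others were named after their values were seen. The loci, lists and rules were chosen with earlier results of these data known. Total depth was 9260452 to 11117460 reads.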

Additional observations from a re-analysis of the deposited data

How the results depend on the processing

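Each group has 2 libraries, so no exact test between genotypes can pass 0.05, and knockdown replicate 1 sets much of the spread. The difference in the share of 25 to 31 nt reads was -0.031 points. With every distinct sequence given a weight of 1 it was 0.240, and it was 0.0257 as a share of 18 to 40 nt reads, and -0.401 to 0.340 with 1 library left out. The length ratio difference of -0.064 was between -0.177 and 0.0489 with 1 library left out. The gene-named minus band-named share of a first T, -1.27 points, was 2.93 with each sequence counted once (exact permutation p = 0.125). The cause of these changes was not tested. Called loci numbered 0 to 63 (0 to 4 gene-named) and called length ratios 0 to 133 (0 to 67 gene-named) with 1 library left out, the higher numbers without knockdown replicate 2. The median log2 difference of gene-named loci, 0.11, was -0.060 by all counted reads, -0.17 by miRNA reads, -0.053 by gene-named reads (an alternative chosen after seeing the data), and -0.42 to 0.39 with 1 library left out, at -0.42 without knockdown replicate 1 and -0.34 without wild type replicate 2. With 1 library left out the log2 difference of pi-Gm5878 ran from -2.57 to 0.14 and that of pi-Zfp382 from -0.34 to 1.04. Loci under 5% in knockdown replicate 1 were 0 with each sequence counted once. Same-numbered libraries deviated together over the 214 loci (r = 0.498), but with 2 pairs they share only a number, and the replicate block gave 0 called loci and 0 called ratios. The other 191 alternative values kept their direction and side of the threshold.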
